A study of Mus musculus with 15 samples.

Results

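Transcripts of 7 genes of the germinal centre reaction and of follicular helper T cells (Bcl6, S1pr2, Il21, Cxcr5, Icos, Sh2d1a and Gcsam) were followed in the islets of NOD females between 4 and 12 weeks of age. They were taken by name from the deposited table of 48709 genes, and all 7 were found and passed the filter on low counts that kept 16554 genes. Each library held the polyadenylated RNA of islets from 1 untreated NOD/ShiLtJ female, picked by hand after collagenase digestion and a density gradient, and 3 mice were sequenced at 4 weeks of age and 3 more at every step of 2 weeks up to 12 weeks. NOD mice develop autoimmune diabetes spontaneously through insulitis, the entry of leukocytes into the islets. No other strain was analysed here, so age and insulitis cannot be told apart.

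Germinal centres form inside B cell follicles, where dividing B cells mutate their antibody genes and compete for help from follicular helper T cells. Both cell types depend on the transcriptional repressor Bcl6 and use the chemokine receptor Cxcr5, which follows Cxcl13, to reach the follicle. The T cells deliver help through the costimulatory receptor Icos, the cytokine interleukin 21 and contacts that need the adaptor encoded by Sh2d1a (SAP), while S1pr2 and Gcsam restrain the migration of germinal centre B cells. Follicle-like aggregates of B and T cells are known from the inflamed islets of NOD mice. Several of the 7 genes are also used by other cells, Icos and Sh2d1a by T cells in general and Cxcr5 by most mature B cells.

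In the files, which use the GRCm38 (mm10) assembly, Bcl6 lies at chr16:23965052-23988852 on the minus strand and Gcsam at chr16:45610380-45622867 on the plus strand. S1pr2 (chr9:20965952-20976793) and Cxcr5 (chr9:44511788-44556391) are both on the minus strand of chromosome 9, and Il21 is at chr3:37222759-37232636, also on the minus strand. Icos (chr1:60977927-61000320) and Sh2d1a (chrX:42502453-42529330) are on the plus strand. A noncoding gene, Gm12534, lies inside Il21 on the opposite strand, and the end of Sh2d1a overlaps Tenm1 on the opposite strand. The sources used here do not say whether counting used strand, so reads of these overlaps could fall to either gene.

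The libraries held 25407492 to 41616275 counts, and the floor of 3 counts stood for 0.0754 to 0.128 CPM, the unit used below for counts relative to library size after TMM scaling. Some mice stood apart from others of their age, in transcripts that mark the cells in which the 7 genes are used. The 8 T cell markers summed to 31.8 CPM in 4-week replicate 1, against 5.0 and 2.86 CPM in replicates 2 and 3. In 8-week replicate 1 they summed to 7.48 CPM, against 111 and 153 CPM in replicates 2 and 3, while the 6 B cell markers of the same mouse reached 43.6 CPM, against 49.2 and 119 CPM. At 6 weeks the T cell markers ran from 3.29 to 30.5 CPM, and at 10 and 12 weeks they lay between 167 and 396 CPM in all 6 mice. Transcripts of the intestinal gene Fabp2 reached 257 counts in 6-week replicate 2 and 1335 in 12-week replicate 1, against 0 to 2 in the other 13 mice. Markers of lymph node vessels and stroma, all 5 of them higher at 12 than at 4 weeks, summed to 3.40 to 11.4 CPM at 4 weeks and 266 to 436 CPM at 12 weeks, and their part in the results was not tested. The endocrine markers ran the other way, with 18695 to 21656 CPM at 4 and 6 weeks and 10214 to 12699 CPM at 12 weeks.

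**Figure D1:**
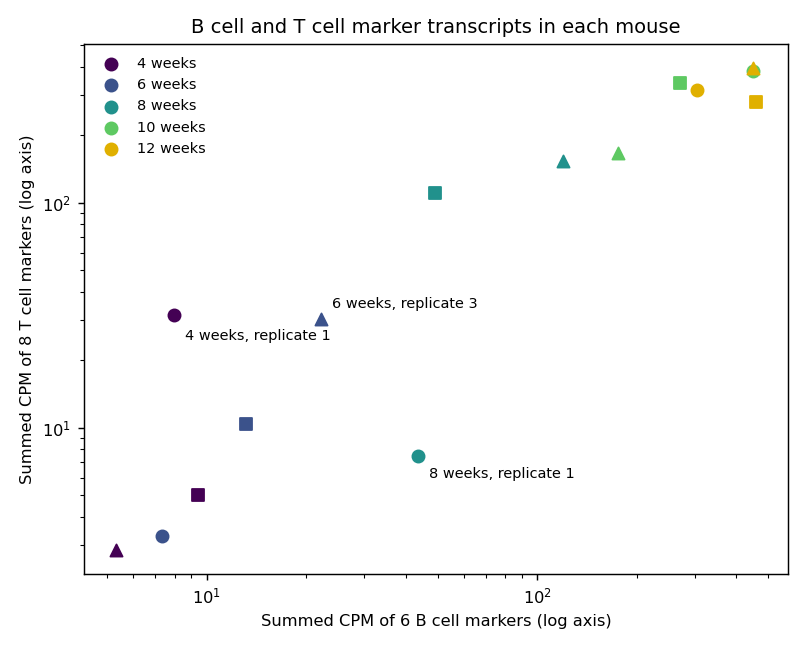
Summed CPM of the 6 B cell markers (x axis, log scale) and of the 8 T cell markers (y axis, log scale), 1 point per mouse, coloured by age, with circles for replicate 1, squares for replicate 2 and triangles for replicate 3. 8-week replicate 1 lies at 43.6 CPM of B cell markers with 7.48 CPM of T cell markers, below the other 2 mice of its age.

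The first question was how far the genes differed between the ends of the timeline. All 7 rose between 4 and 12 weeks, and for each of them every 12-week mouse lay above every 4-week mouse. The increase ran from 3.22-fold for Bcl6 to 79.2-fold for Cxcr5, and its median was 4.24 on the log2 scale, against -0.05 for all genes tested. Among all genes tested, 26.3% rose at an adjusted p under 0.05, and 30.3% had 12-week mice all above the 4-week mice. At the threshold of the study, a fold change of at least 1.5 with an unadjusted p under 0.05, the 7 genes also all passed, against 20.9% of all genes. The 7 calls held without the 2 mice with intestinal transcripts and without 4-week and 8-week replicate 1, alternatives chosen after seeing the data. In bulk samples more cells of a type and more RNA per cell cannot be told apart, and the T and B cell markers rose over the same interval by a median of 4.76 and 7.85 on the log2 scale.

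Cxcr5, the follicle-homing receptor, had 23, 0 and 1 counts in the 3 mice of 4 weeks and 570, 788 and 918 counts in those of 12 weeks. In CPM this was 0.299 ± 0.487 (SD, n = 3) against 24.6 ± 5.42. The log2 fold change was 6.31 (SE 1.0), with an adjusted p of 0.000459 in edgeR's quasi-likelihood test. Most of the 4-week reads came from replicate 1, the mouse with the most T cell marker transcripts at that age. The other 2 mice of 4 weeks were under the floor of 3 counts, so no fold change from 4 to 12 weeks is given without it.

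Il21, the cytokine that follicular helper cells release onto B cells, went from 11, 0 and 2 counts at 4 weeks to 137, 70 and 194 counts at 12 weeks. The means were 0.161 ± 0.220 and 4.29 ± 1.88 CPM (SD, n = 3), a 25.3-fold difference with an adjusted p of 0.00278 in edgeR's quasi-likelihood test. The groups were apart, and the younger one was at or under the floor of 3 counts in replicates 2 and 3.

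Icos, the receptor through which these T cells are costimulated, had 51, 12 and 3 counts at 4 weeks and 551, 354 and 696 counts at 12 weeks. It rose 20.2-fold (log2 fold change 4.34, SE 1.07, adjusted p = 0.00485, edgeR). Sh2d1a, the adaptor of SLAM family receptors, rose by a like amount, 18.8-fold (4.24 on the log2 scale, SE 1.06, adjusted p = 0.00527, edgeR), from 22, 2 and 0 to 180, 137 and 227 counts. In both genes 4-week replicate 1 was the highest of its age, and no mouse of 4 weeks reached the lowest of 12 weeks.

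Gcsam, a signalling protein of germinal centre B cells, had 23, 6 and 0 counts at 4 weeks against 128, 134 and 159 counts at 12 weeks. This was a 12.1-fold rise (log2 fold change 3.59, SE 0.953, adjusted p = 0.00716, edgeR), and at 12 weeks the 3 mice were close together (4.54 ± 0.428 CPM, SD, n = 3). S1pr2 and Bcl6 were the only members above the floor in every mouse of every age. S1pr2, the sphingosine-1-phosphate receptor that holds B cells in the germinal centre, went from 104, 40 and 36 to 323, 237 and 342 counts, 4.21-fold (log2 fold change 2.07, SE 0.481, adjusted p = 0.00339, edgeR). Bcl6 went from 111, 146 and 92 to 429, 366 and 572 counts, 3.22-fold (log2 fold change 1.69, SE 0.402, adjusted p = 0.00392, edgeR). These were the smallest increases among the 7.

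**Figure D2:**
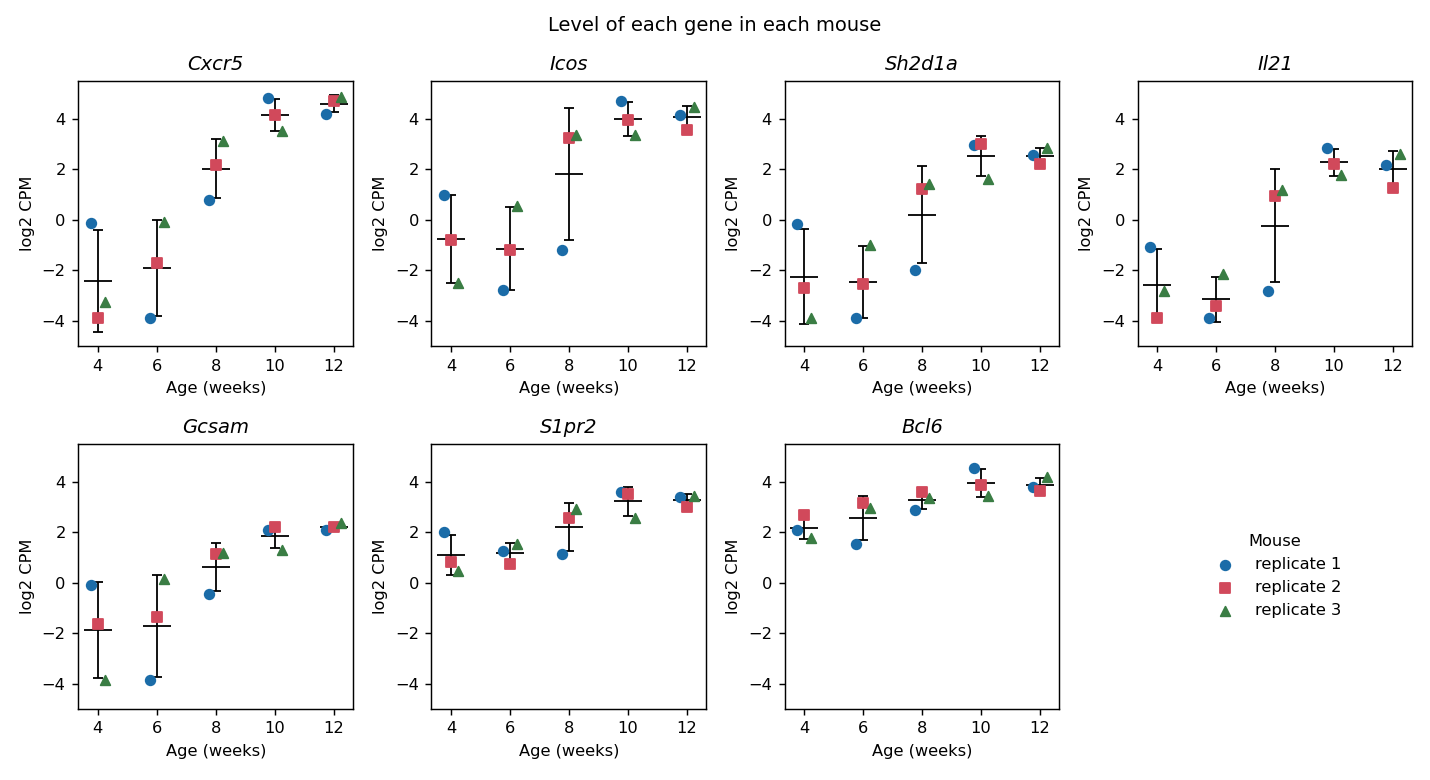
Log2 CPM (prior count 2, y axis) of each gene in each mouse against age in weeks (x axis), with horizontal bars for the mean and error bars for the SD of 3 mice. In Cxcr5, Icos, Sh2d1a, Il21 and Gcsam, 8-week replicate 1 (circle) lies below the other mice of its age, and in all 7 genes the 12-week mice lie above the 4-week mice.

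A single test per gene for a difference among any of the 5 ages called all 7 genes, with adjusted p values from 0.000526 for Cxcr5 to 0.0119 for Gcsam in edgeR's quasi-likelihood test, and 6 without the 2 mice with intestinal transcripts. Of all genes tested, 56% were called in it. Between neighbouring ages the steps were then asked for 1 by 1, in order of age. These steps share mice, since the older group of a comparison is the younger group of the next, and the values are given side by side.

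Between 4 and 6 weeks none of the 7 genes passed a test. By edgeR 0 had an adjusted p under 0.05, where 0.00604% of all genes rose, and 0 had an unadjusted p under 0.05 and passed the study's threshold, where 1.15% did. DESeq2 and the edgeR exact test also called 0. The log2 fold changes ran from -1.46 for Il21 (95% interval -4.78 to 1.85) to 0.51 for Bcl6 (-0.36 to 1.37), intervals that leave room for changes of either direction. At 6 weeks Il21 had 0, 1 and 4 counts, Sh2d1a 0, 4 and 11, Cxcr5 0, 9 and 22, and Gcsam 0, 12 and 26. Replicate 3, with 30.5 CPM of T cell marker transcripts, was the highest mouse in each of these genes and in Icos, which had 2, 14 and 35 counts. With replicate 1 of 6 weeks left out 1 member passed the study's threshold.

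Between 6 and 8 weeks 6 of the 7 genes, all but Bcl6, had the largest fitted fold change of the 4 steps, but the 8-week mice were split. In the edgeR test 0 of the 7 genes had an adjusted p under 0.05, as was so of all genes tested (0% higher). An unadjusted p under 0.05 with a fold of at least 1.5 was reached by 5, namely Il21, Cxcr5, Icos, Sh2d1a and S1pr2, against 8.4% of all genes. That count was 3 without the 2 mice with intestinal transcripts. Only Cxcr5 had every 8-week mouse above every 6-week mouse, against 7.62% of all genes.

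Il21 had 2, 52 and 62 counts at 8 weeks and a log2 fold change of 4.49 (SE 1.22, adjusted p = 0.172, edgeR). Icos had 10, 264 and 289 counts and a log2 fold change of 3.49 (SE 1.08, adjusted p = 0.180, edgeR), and Sh2d1a had 5, 63 and 73 counts and 3.25 (SE 1.14, adjusted p = 0.199, edgeR). In each of them replicate 1 stayed within the range of the 6-week mice and replicates 2 and 3 were above all of them. This is the mouse whose T cell markers summed to 7.48 CPM.

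Cxcr5 had 46, 124 and 241 counts at 8 weeks, with a log2 fold change of 3.76 (SE 0.950, adjusted p = 0.162, edgeR). Replicate 1, which held B cell but few T cell marker transcripts, was thus above the 22 counts of the highest 6-week mouse in this gene. Its Cxcl13, the chemokine to which Cxcr5 binds, stood at 867 counts, above the 627 and 358 counts of the other 8-week mice and the 5 to 38 counts at 6 weeks. Gcsam (18, 60 and 62 counts), S1pr2 (58, 163 and 208) and Bcl6 (201, 338 and 281) had log2 fold changes of 1.92, 1.20 and 0.60, and in all of these replicate 1 was again the lowest and overlapped the 6-week mice.

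The call at this step depended on that mouse. Without 8-week replicate 1 the log2 fold changes were 5.05 for Il21, 4.18 for Cxcr5 and 4.05 for Icos, and these 3 genes passed with adjusted p values of 0.0277, 0.0327 and 0.0310 (edgeR). In that fit 724 of 16870 genes tested were called higher, against 0 with all mice. Without 8-week replicate 1 and 4-week replicate 1, S1pr2 (1.57, adjusted p = 0.0181) and Sh2d1a (3.78, adjusted p = 0.0172) passed as well in edgeR's test, which made 5. There 1137 of 16839 genes were called higher. With all mice, DESeq2 called 1 member, Il21 (adjusted p = 0.00728), and so did the edgeR exact test (adjusted p = 0.0324). Over all genes DESeq2 called 448 of 22813 higher and the exact test 267 of 16554.

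**Figure D3:**
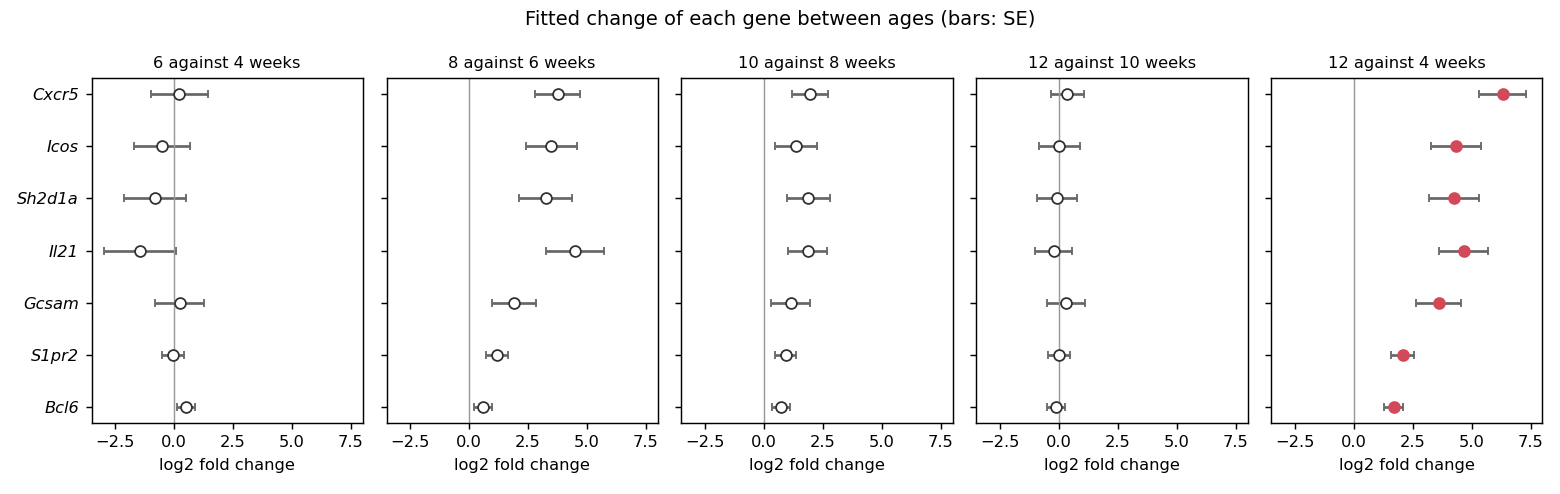
Log2 fold change of each gene (x axis) in 5 comparisons of ages, with bars for the SE of the edgeR fit of 3 mice per age. Filled points have an adjusted p under 0.05, which holds for all 7 genes at 12 against 4 weeks (1.69 to 6.31) and for 0 of them at the steps of 2 weeks.

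From 8 to 10 weeks all 7 genes had log2 fold changes above 0, from 0.71 for Bcl6 to 1.96 for Cxcr5, and 0 passed at an adjusted p under 0.05 in edgeR, DESeq2 or the edgeR exact test. Of all genes, 8.4% rose at that threshold. Cxcr5 (773, 709 and 347 counts at 10 weeks; log2 fold change 1.96, SE 0.751, adjusted p = 0.0817, edgeR) and Il21 (198, 181 and 100 counts; 1.85, SE 0.830, adjusted p = 0.123, edgeR) passed the study's unadjusted threshold, as did 11.1% of all genes. This count was 0 without 8-week replicate 1, 8-week replicate 2 or 10-week replicate 1, 1 without 10-week replicate 2 and 5 without 10-week replicate 3.

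In Il21, Cxcr5, Sh2d1a and Gcsam every 10-week mouse lay above every 8-week mouse, against 17.2% of all genes. Sh2d1a had 215, 313 and 91 counts and Gcsam 115, 181 and 71 counts at 10 weeks. Icos (714, 609 and 305 counts), S1pr2 (326, 455 and 175) and Bcl6 (640, 578 and 319) overlapped the 8-week mice in CPM. In each of the 7 genes 10-week replicate 3 was the lowest of its age, and it also had the fewest T cell marker transcripts (167 CPM against 339 and 386) and B cell marker transcripts (175 CPM against 269 and 450).

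No member was called between 10 and 12 weeks. In edgeR 0 of 7 had an adjusted p under 0.05, as did 0% of all genes, 0 had an unadjusted p under 0.05, and DESeq2 and the edgeR exact test called 0. Of all genes, 1.61% were higher at the study's threshold. The log2 fold changes lay between -0.22 for Il21 (95% interval -1.92 to 1.48) and 0.36 for Cxcr5 (-1.18 to 1.91), so a 2-fold change in either direction was within the interval of both. For Bcl6 the interval was narrower, from -0.96 to 0.70 around -0.13.

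Levels of different genes can be set side by side per transcript length, for which the TPM deposited by the authors were used. At 12 weeks Cxcr5 led with 22.0 ± 5.96 TPM (SD, n = 3), followed by Icos (12.7 ± 4.39), S1pr2 (8.71 ± 1.72), Bcl6 (5.56 ± 1.48), Sh2d1a (4.45 ± 1.23), Il21 (3.47 ± 1.70) and Gcsam (3.35 ± 0.530). Every gene in this order overlapped its neighbour in the values of single mice. At 4 weeks the order was another: S1pr2 (1.59 ± 1.03 TPM) and Bcl6 (1.31 ± 0.395 TPM) came first, with Icos at 0.484, Gcsam at 0.214, Cxcr5 at 0.212, Sh2d1a at 0.181 and Il21 at 0.102 TPM. Cxcr5 thus moved from rank 5 at 4 and 6 weeks to rank 3 at 8 weeks and rank 1 at 10 and 12 weeks.

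**Figure D4:**
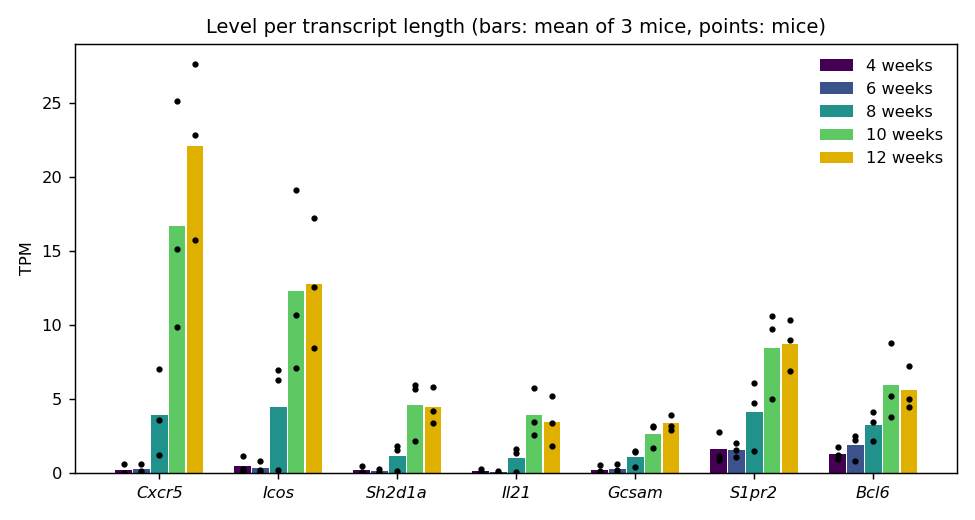
TPM (y axis) of the 7 genes by age, with bars for the mean of 3 mice and points for the mice. At 12 weeks the means run from 3.35 TPM for Gcsam to 22.0 TPM for Cxcr5, and at 4 weeks S1pr2 (1.59) and Bcl6 (1.31) are the highest.

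Since lymphocyte transcripts rose in the same mice, each gene was also expressed per 1000 counts of the T cell or B cell markers, and 12 weeks was compared with 8 weeks, the first age at which every mouse held at least 205 counts of T cell markers and 1196 counts of B cell markers. Per T cell marker transcript, the 8-week mice overlapped the older mice in Sh2d1a, Icos and Il21. Sh2d1a had 24.4, 20.3 and 17.0 counts per 1000 T cell marker counts in the 8-week mice and 16.3 to 23.2 in the 6 mice of 10 and 12 weeks. Icos had 48.8, 85.0 and 67.3 at 8 weeks and 42.2 to 66.9 later, and Il21 9.76, 14.4 and 16.7 at 8 weeks and 8.34 to 19.9 later. 8-week replicate 1, with 205 T cell marker counts in all, lay within the range of the older mice in Icos, on 10 counts, and just above it in Sh2d1a, on 5 counts, while its Il21 ratio rests on 2 counts, under the floor, and cannot be read. Of the 205 marker counts of this mouse, 82 were of Lck and 36 of Cd2.

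In edgeR's test with the marker counts as the offset, the log2 change from 8 to 12 weeks was -0.21 for Sh2d1a (95% interval -2.44 to 2.03), -0.40 for Icos (-2.68 to 1.88) and -0.16 for Il21 (-2.36 to 2.04). None passed. This fit shares its estimate of the spread over all genes tested, most of them of other cells, for which the median log2 change was -4.02 and of which 85.5% were called. An exact permutation test of the log2 ratios per mouse, added after seeing the data, gave differences of -0.21 for Sh2d1a (p = 0.3), -0.36 for Icos (p = 0.3) and -0.13 for Il21 (p = 0.6), with 0.1 the smallest p that 3 mice against 3 allow.

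Cxcr5 had a narrower range per B cell than per T cell marker transcript. It had 38.5, 89.9 and 72.0 counts per 1000 B cell marker counts at 8 weeks and 57.3 to 66.1 in the 6 mice of 10 and 12 weeks, whose highest value was 1.15 times the lowest. Per 1000 T cell marker counts the same 6 mice ran from 52.5 to 93.9, and 8-week replicate 1 stood at 224 against 39.9 and 56.2 in the other 2. The log2 change of Cxcr5 per B cell marker transcript from 8 to 12 weeks was -0.14 (95% interval -1.35 to 1.07, adjusted p = 0.826, edgeR).

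Bcl6 and S1pr2 had higher ratios at 8 weeks than later. Per 1000 B cell marker counts Bcl6 had 168, 245 and 84.0 at 8 weeks and 26.6 to 60.5 in the 6 older mice, and S1pr2 had 48.5, 118 and 62.2 at 8 weeks and 17.2 to 42.4 later. Relative to B cell markers both fell from 8 to 12 weeks, by 2.14 on the log2 scale for Bcl6 (SE 0.567, adjusted p = 0.000217) and by 1.60 for S1pr2 (SE 0.591, adjusted p = 0.00803) in edgeR's test, in which 91.2% of all genes were called and the median log2 change was -2.76. The exact permutation test of log2 ratios per mouse gave differences of -2.05 and -1.55, each with p = 0.1, the smallest it allows. The call of S1pr2 was lost without 8-week replicate 2 (adjusted p = 0.0884) or 12-week replicate 2 (adjusted p = 0.0541). Relative to T cell markers 85.5% of all genes were called, with a median log2 change of -4.02. Bcl6 was the only member called there, with a log2 change of -3.11 (adjusted p = 0.0226, edgeR), which was -0.98 (adjusted p = 0.443) without 8-week replicate 1. The call was also lost without any 1 of the 12-week mice (adjusted p = 0.0721 to 0.0728) and in the fit with a replicate block (adjusted p = 0.0800). At 4 and 6 weeks, when lymphocyte markers were scarce, Bcl6 stood at 343 to 676 and S1pr2 at 122 to 488 counts per 1000 B cell marker counts. The marker sums of these ages were mostly counts of Cd79a, from 311 of 562 in 6-week replicate 3 to 125 of 147 in 4-week replicate 3. In the latter mouse 3 of the 6 markers had 0 counts, so the early ratios cannot be read as levels per B cell. In 8-week replicate 1 Cd79a gave 381 of 1196. The 2 calls relative to B cell markers held with any 1 marker left out. Gcsam, with -1.15 relative to B cell (adjusted p = 0.103) and -1.47 relative to T cell markers (adjusted p = 0.227, edgeR), passed neither test.

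**Figure D5:**
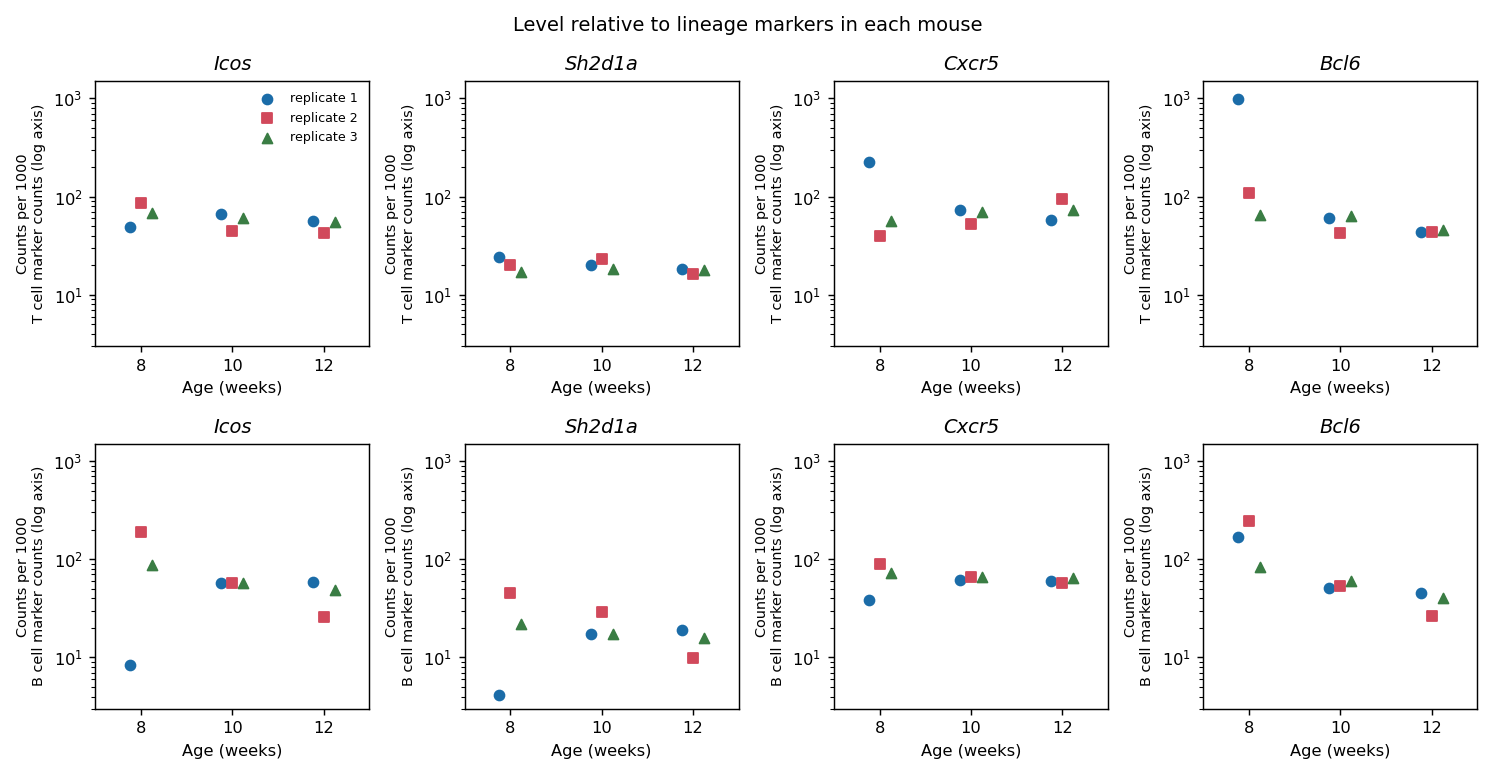
Counts of Icos, Sh2d1a, Cxcr5 and Bcl6 per 1000 counts of the T cell markers (upper row) and of the B cell markers (lower row), log y axis, in each mouse of 8, 10 and 12 weeks (x axis). Sh2d1a per T cell marker transcript lies between 16.3 and 24.4 in all 9 mice and Cxcr5 per B cell marker transcript between 57.3 and 66.1 at 10 and 12 weeks, while Bcl6 per B cell marker transcript lies at 84.0 to 245 at 8 weeks and 26.6 to 60.5 later.

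The genes whose profile over the 15 mice was most like that of each member, by the root mean square difference of centred log2 CPM, differed between the members. For Sh2d1a they were Itgal (0.204), Ptpn7 (0.220) and Ptpn22 (0.250), for Icos Cst7 (0.255), Lag3 (0.282) and Zap70 (0.283), and for Il21 Tespa1 (0.457), Lat (0.473) and Lck (0.482). Among the genes closest to Cxcr5 were Tnfrsf13c (0.483) and Fcrla (0.507). For S1pr2 they were Ifitm3 (0.156), Ifi44 (0.169) and Lgals1 (0.170), for Bcl6 Cdh23 (0.261), D5Ertd605e (0.270) and Tmem106a (0.326), and for Gcsam Ncr1 (0.405), Xcr1 (0.419) and Rnase6 (0.436). Among the members themselves the closest pair was Icos and Sh2d1a (0.358) and the farthest Bcl6 and Cxcr5 (2.47). These differences depend on how widely a gene varied over the mice, with an SD of log2 CPM of 0.86 for Bcl6 and 3.27 for Cxcr5.

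Other genes of follicular helper cells mostly rose with the members. Of 15 listed, 13 were tested, and at 12 against 4 weeks 10 were called higher and 1 lower by edgeR, with a median log2 fold change of 4.05 against -0.05 for all genes. Of all genes tested, 26.3% were called higher. All 8 T cell markers were called higher at these ages as well, with a median of 4.76. Among those above the floor at 4 weeks Tcf7, a transcription factor of T cells, rose most (5.61 on the log2 scale), from 100, 21 and 12 to 2214, 2448 and 3042 counts. Cd40lg, the ligand through which T cells activate B cells, had 3, 1 and 0 counts at 4 weeks and 68, 80 and 116 counts at 12 weeks (at least 24.4-fold higher, against a floor of 3 counts per library). Il6ra, a receptor subunit for interleukin 6, was the gene called lower (-0.54). Tox2, a transcription factor of these cells, was the only one called between 8 and 10 weeks (1.12, adjusted p = 0.0351, edgeR). Il4 and Ascl2 were removed by the filter, Il4 with at most 2 counts in any mouse and Ascl2 with at most 7.

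Most genes tied to the germinal centre B cell were called higher and some were called lower. Of 14 listed, 13 were tested, and 8 were called higher and 3 lower at 12 against 4 weeks (edgeR), with a median log2 fold change of 1.82. Of all genes tested, 26.3% were called higher and 27.2% lower at these ages. The lower calls were thus no more frequent in this list than among all genes. All 6 B cell markers were called higher, with a median of 7.85. Pou2af1, a B cell coactivator, was the largest of the increases (6.67) and Mybl1 the largest of the decreases (-1.11). Mybl1 had a log2 fold change of -0.94 already at 6 against 4 weeks (adjusted p = 0.0733, edgeR), with no overlap between the mice. Plxnb2 (-0.24) and Neil1 (-0.30) were also called lower, and the median of all genes, to which these values are relative, was -0.05 with TMM factors and 0.20 with library totals. At 4 weeks, when lymphocyte markers were scarce, Plxnb2 already stood at 343 to 355 CPM and Neil1 at 10.9 to 11.6 CPM. Fas, Lmo2, Bach2 and Basp1 were called higher between 8 and 10 weeks, by 0.74 to 1.64 on the log2 scale.

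Several genes of this list were near the limit of detection. Mef2b, a transcription factor upstream of Bcl6, had 2, 0 and 1 counts at 4 weeks and 13, 22 and 37 at 12 weeks, at least 6.65-fold higher. Rgs13 was removed by the filter and had 15, 5 and 16 counts at 12 weeks, and Nuggc (20, 9 and 8 counts at 12 weeks) passed no test at 12 against 4 weeks (adjusted p = 0.166, edgeR).

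Ligands, receptors and signalling partners of the members rose with them, 16 of 18 at 12 against 4 weeks with 0 lower (edgeR, median log2 fold change 3.57), against 26.3% of all genes. Cxcl13, the ligand of Cxcr5, was the largest (45, 3 and 7 counts at 4 weeks, 2247, 2050 and 3210 at 12 weeks, 6.84 on the log2 scale). Icosl, the ligand of Icos, rose by 3.59 and the interleukin 21 receptor Il21r by 5.03. The SLAM family receptors that signal through the Sh2d1a product rose as well, with Ly9 at 5.25 and Slamf6 at 5.19. Bcor, a corepressor that Bcl6 recruits, had a log2 fold change of -0.08 and passed no test. Between 8 and 10 weeks Cxcl13 (1.81), Fyn (1.15) and Arhgef1 (0.65) were called.

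Beside S1pr2, the other 4 sphingosine-1-phosphate receptors were also called higher at 12 against 4 weeks, S1pr5 on 2, 1 and 3 counts at 4 weeks (at least 3.79-fold). S1pr4 rose most (3.56) and S1pr3 least (1.68), and the median of the 5 was 2.28, or 2.07 with S1pr5 at its bound. S1pr1 (1.06) and S1pr4 (1.93) were called between 8 and 10 weeks, where S1pr2 had 0.92 and an adjusted p of 0.157 (edgeR). Of 10 genes of follicle stroma and follicular dendritic cells, all were called higher at 12 against 4 weeks, with a median of 3.21. Of all genes, 26.3% were called higher at these ages. Cr2, a complement receptor of these cells and of B cells, went from 2, 3 and 0 to 887, 2114 and 1859 counts (at least 452-fold), and Ltbr rose least (0.33). Between 8 and 10 weeks 5 of the follicle stroma genes, Cxcl13, Cr2, Fcer2a, Mfge8 and Clu, were called, where 8.4% of all genes rose. Between 6 and 8 weeks no gene of these lists had an adjusted p under 0.05 in edgeR. The study's unadjusted threshold was passed by 8 of 13 genes of follicular helper cells, 5 of 13 of germinal centre B cells, 11 of 18 partners and 7 of 10 of follicle stroma. It was passed by 8.4% of all genes, 7 of the 8 T cell markers and all 6 B cell markers.

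Proximal promoters were read for the members with a window in the RefSeq table of GRCm38.p6, which held 4 of the 7. They are shown as a description of these genes, and each is given 5′ to 3′ on the strand of its gene, with capitals for the motif found. Searched on both strands were STAT (TTCNNNGAA), AP-1 (TGANTCA), an interferon response element (GAAA, any 2 bases, GAAA), an E-box (CAGGTG) and NFAT (TGGAAAA). The windows run over the 250 bases before the start, except that of Gcsam, which holds 190 bases and stops where an exon of GENCODE M21 begins.
Bcl6 (chr16:23988853-23989102, minus strand): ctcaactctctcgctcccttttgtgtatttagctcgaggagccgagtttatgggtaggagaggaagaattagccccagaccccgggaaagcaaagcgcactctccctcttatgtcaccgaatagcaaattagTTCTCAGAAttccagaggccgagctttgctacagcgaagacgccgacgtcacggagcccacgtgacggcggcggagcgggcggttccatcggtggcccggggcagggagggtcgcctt
S1pr2 (chr9:20976794-20977043, minus strand): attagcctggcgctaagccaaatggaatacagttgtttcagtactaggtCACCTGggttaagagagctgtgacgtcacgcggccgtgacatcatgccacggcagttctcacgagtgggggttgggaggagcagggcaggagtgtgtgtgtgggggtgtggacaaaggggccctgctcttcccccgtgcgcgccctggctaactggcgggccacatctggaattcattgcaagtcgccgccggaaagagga
Il21 (chr3:37232637-37232886, minus strand): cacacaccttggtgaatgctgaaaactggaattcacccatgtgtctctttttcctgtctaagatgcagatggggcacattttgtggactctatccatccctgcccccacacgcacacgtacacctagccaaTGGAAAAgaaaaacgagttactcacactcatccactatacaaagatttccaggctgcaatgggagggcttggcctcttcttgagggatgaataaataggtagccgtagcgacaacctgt
Gcsam (chr16:45610190-45610379, plus strand): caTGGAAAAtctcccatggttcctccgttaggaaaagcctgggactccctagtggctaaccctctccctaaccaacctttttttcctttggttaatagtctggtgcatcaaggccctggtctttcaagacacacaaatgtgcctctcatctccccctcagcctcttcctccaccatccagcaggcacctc

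Bcl6 thus held a STAT match at positions -118 to -110 from its start, S1pr2 an E-box at -201 to -196 (read as CACCTG), and Il21 and Gcsam an NFAT match, at -119 to -113 and at -248 to -242. These positions count from the RefSeq start, which for Gcsam lies past the last base printed and past the start of the gene given above. No AP-1 or interferon response letters were found in these 4 windows. Of 32851 windows in the table, 7.02% held the STAT letters, 6.75% AP-1, 2.98% the interferon response element, 17.2% the E-box and 5.93% NFAT. A match is a description of the letters and was not tested for binding.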

How the data were processed

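Polyadenylated RNA of islets was sequenced as read pairs, 1 library per mouse. The authors used CLC Genomics Workbench to trim and align the reads and to count them per gene. The submitters' processing notes name mm10 as the build. The counts as deposited are raw reads per gene, not normalized, and every test was made on them. The deposited RPKM and TPM, which the authors' software scaled to transcript length and library size, were used for the order of levels. The deposited columns named CPM were treated as a score, since their sums differ between samples, and these 15 columns were not used. Libraries held 25407492 to 41616275 counts, and depth limits values under 3 counts. Between mice of 1 age the chi-square per degree of freedom of the counts was 15.9 to 127, so no samples were merged.

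In edgeR 4.0.16 (R 4.3.3) genes were kept by filterByExpr (16554), scaled by TMM and fitted with glmQLFit, with 1 mean per age over all 15 mice. Contrasts were tested with glmQLFTest, two-sided, with Benjamini-Hochberg adjustment over all genes kept, and called at an adjusted p under 0.05. The threshold of the study (fold of at least 1.5, unadjusted p under 0.05) was counted beside it. Log2 CPM used a prior count of 2. For values relative to lineage markers, the log of the summed marker counts replaced the library size as the offset. The pipeline was tested on simulated data.

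All 7 members are named, with the largest and smallest change of each list at 12 against 4 weeks, genes called at the steps, genes removed by the filter and the 3 genes of nearest profile. Tcf7, Mef2b, Nuggc, Plxnb2, Neil1, Icosl, Il21r, Slamf6 and Bcor were named after their values were seen. Some genes that fall under this rule are not reported here. The members and lists were chosen with earlier results of these data known, and the gene Cd244a was matched as Cd244. The alternatives were DESeq2's size factors, library totals, no filter, DESeq2 1.42.0, the edgeR exact test, the 2 ages alone, each mouse or marker left out, a prior count of 0.5, RPKM, the replicate number as a block, and 3 chosen after seeing the data: without the 2 mice with intestinal transcripts, without 4-week and 8-week replicate 1, and the exact permutation test of log2 ratios. Promoter windows came from RefSeq (GRCm38.p6). Figures were drawn with matplotlib 3.10.9 in Python 3.11.15.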

Additional observations from a re-analysis of the deposited data

How the results depend on the processing

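All 7 genes were called at 12 against 4 weeks under every alternative run, and 0 reversed there, at 8 against 6 or at 10 against 8 weeks; the test over the 5 ages called 6 without the mice with intestinal transcripts and 7 otherwise. The replicate numbers do not pair the mice: deviations of mice with the same number correlated between -0.504 and 0.509, and not all pairs of any comparison were above 0.1. With the replicate block, members passing the study's threshold at 10 against 8 weeks went from 2 to 1, and the member called relative to T cell markers from 1 to 0. At 10 against 8 weeks that count was also 1 without the mice with intestinal transcripts and with the 2 ages alone, 0 with the edgeR exact test, and 0 to 5 with a mouse left out. At 8 against 6 weeks it was 3 without the mice with intestinal transcripts and 3 to 6 with a mouse left out (5 with all mice), and at 6 against 4 weeks 0 to 1. Members called at 8 against 6 weeks were 1 with DESeq2, 1 with the exact test, 5 without 4-week and 8-week replicate 1, and 0 to 3 with a mouse left out. Over all genes, 448, 267 and 1137 were called higher in the first 3 of these fits, and 724 without 8-week replicate 1. Relative to T cell markers 0 to 2 and relative to B cell markers 1 to 3 members were called with a mouse left out. The cause of these shifts was not tested.

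Log2 fold changes that turned in sign were all of comparisons without a call. At 12 against 10 weeks S1pr2 was -0.00065 with no filter and -0.0037 with the replicate block, where Icos was -0.044, and without the mice with intestinal transcripts S1pr2 was -0.052 and Icos -0.019. With a mouse left out, at this step, Bcl6 ran from -0.36 to 0.23, S1pr2 from -0.26 to 0.17, Il21 from -0.56 to 0.12, Icos from -0.26 to 0.43 and Sh2d1a from -0.42 to 0.12. At 6 against 4 weeks S1pr2 was 0.16 without the mice with intestinal transcripts, and without 4-week and 8-week replicate 1 S1pr2 was 0.57, Il21 0.51, Icos 0.98 and Sh2d1a 2.02. With a mouse left out, S1pr2 ran from -0.33 to 0.57, Il21 from -3.09 to 0.52, Icos from -1.78 to 0.98, Sh2d1a from -2.24 to 2.02, Cxcr5 from -1.13 to 3.92 and Gcsam from -1.06 to 1.83. Some values at this step rest on mice under the floor of 3 counts and cannot be read as sizes or directions of change. Without 4-week replicate 1, these were Cxcr5 (0 and 1 counts at 4 weeks), Il21 (0 and 2) and Sh2d1a (2 and 0). Their 3.92, 0.52 and 2.02 are of this kind, as are 0.51 and 2.02 without 8-week replicate 1 as well. Without 6-week replicate 3, Il21 had 0 and 1 counts at 6 weeks, on which its -3.09 rests. From 8 to 12 weeks, also with a mouse left out, Il21 ran from -0.33 to 0.066 and Cxcr5 from -0.89 to 0.64 relative to T cell markers, and relative to B cell markers Il21 ran from -1.33 to 0.052, Cxcr5 from -0.41 to 0.13 and Sh2d1a from -1.16 to 0.15.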
